A study of Arabidopsis thaliana with 4 samples.

Results

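The bins at 3.2 to 3.5 Mb of chromosome 2 (TAIR10), where the nuclear genome of Arabidopsis thaliana carries an insertion of mitochondrial DNA, were followed through Hi-C contact maps of endosperm and leaf. They are 3 of the 1168 bins of 100 kb that carried signal in both maps. They were chosen by position and, in part, for their high contact counts, so those counts are given as a description from which nothing is read. In what follows the bins at 3.2 to 3.3, 3.3 to 3.4 and 3.4 to 3.5 Mb are called the northern, middle and southern insertion bins. They were set against 47 neighbour bins at 1.7 to 3.2 Mb and 3.5 to 6.7 Mb, and against 10 control bins within that window, 5 at 2.2 to 2.7 Mb to the north and 5 at 4.2 to 4.7 Mb to the south.

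Plant nuclear genomes contain stretches of DNA that were copied from the mitochondrial genome, and in the Columbia accession a nearly whole mitochondrial genome lies in the heterochromatin beside the centromere of chromosome 2. The insertion is known to be longer in the plant than in the reference assembly, with parts of it repeated. Its sequence is close to that of the mitochondrial genome, so a read from free mitochondrial DNA can be placed on it. Reads from repeated copies and reads from free mitochondrial DNA both raise the count of these bins, and the counts alone cannot tell them apart. In Hi-C, crosslinked chromatin is cut and religated, and each sequenced pair joins stretches that lay near each other. A stretch that sits in its chromosome meets its neighbours often and ever more rarely with distance, whereas DNA ligated at random meets every region alike. The question put to the maps was where between these forms the profile of the insertion bins lay.

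The labels give 4 samples of ecotype Col-0 and genotype Col_wt x Col_wt, 2 replicates each of F1 endosperm, the nutritive tissue of the seed, and of leaf from plants aged 4 weeks. They give no treatment and no age for the endosperm. The replicates of a tissue are pooled in 1 deposited map, so the spread between replicates could not be measured and no test was made. The maps hold 18557893 contacts in leaf and 25033672 in endosperm, with a median of 26456 and 36409.5 contacts per bin and of 16 and 21 per interchromosomal pair. Ranges in parentheses are 95% intervals that cover counting error alone. The bins span the nuclear chromosomes with no bin for the mitochondrial or plastid genome, and whether reads were also aligned to those genomes is not given in the sources used here.

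In the reference gene table (assembly TAIR10.1) the insertion bins held 184 genes, of which 92 were protein-coding, 49 were pseudogenes and 22 encoded transfer RNAs. The 10 control bins held 265 genes, of which 70 were protein-coding, 182 were pseudogenes and 0 encoded transfer RNAs. The northern, middle and southern bins carried 4, 7 and 11 transfer RNA genes, and 12 of the 1168 bins carried 4 or more. The symbols in the 3 bins were ABCI5 and ABCI4, both in the northern bin. The table gave 0 genes there a name of the mitochondrial respiratory, ATP synthase, cytochrome c maturation, ribosomal or maturase families, against 39 entries so named on the mitochondrial chromosome. Since only 2 of the 184 genes carried a symbol, this match could find little, and the mitochondrial origin of the bins was taken from their position. The ABC transporter I family, to which both symbols belong, includes subunits for cytochrome c maturation, and the name match did not cover it. The neighbour bin at 3.5 to 3.6 Mb held ABCC13, an ABC transporter gene, MIR5646 and MCM5, a subunit gene of the replicative helicase complex.

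The northern bin held 57819 contacts in leaf, 2.18 times the median bin, and 131745 in endosperm, 3.62 times the median. The middle bin held 78571 in leaf (2.97 times) and 198671 in endosperm (5.45 times). The southern bin held 56186 in leaf (2.12 times) and 175867 in endosperm (4.83 times). The control bins had 0.645 to 0.935 times the median in leaf, and 0.634 to 0.970 times in endosperm. In each tissue 12 bins, 1.03% of those used, exceeded 2 times the median, and the 3 insertion bins were among them. Relative to the median bin, counts were 1.66, 1.84 and 2.27 times as high in endosperm as in leaf from the northern to the southern bin. A ratio over 1.5 occurred in 7 bins of the genome, 0.599%, and the southern bin had the highest of the 1168.

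The counts of the insertion bins were not divided in the same proportions in both tissues. Pairs with both ends inside the same insertion bin made up 12.5% to 13.1% of the bins' counts in leaf and 14.1% to 18.2% in endosperm. The control bins had 8.93% to 11.5% in leaf and 6.702% to 8.43% in endosperm. Pairs with the other two insertion bins took 5.19% to 7.14% of an insertion bin's counts in leaf and 12.1% to 13.1% in endosperm. Interchromosomal pairs took 61.1% to 64.1% in leaf and 55.9% to 57.3% in endosperm, against 59.0% to 66.0% and 61.8% to 64.9% in the control bins. As a share of the raw counts, contact among the insertion bins was higher in endosperm and contact with other chromosomes lower. These shares come from the counts that chose the bins in part, and are given as a description.

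Between the northern and middle bins 3168 contacts were counted in leaf and 10854 in endosperm, 7.63 and 20.6 times the median of neighbour pairs at the same distance. Between the middle and southern bins there were 1955 in leaf and 15170 in endosperm, 4.71 and 28.8 times that median. Between the northern and southern bins there were 959 and 6134, 5.33 and 23.1 times. All 3 pairs were further above the neighbour pairs in endosperm, where the bins' total counts were also higher. Raw pair counts rise with those totals, which chose the bins in part, and are given as a description. The deposited signal divides such counts by a balancing factor of each bin, which gives every bin the same total. After balancing, the 3 pairs stood at 1.22, 0.763 and 1.13 times the neighbour expectation at their distance in leaf, and at 1.40, 1.51 and 1.77 times in endosperm, in the order given above.

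Balanced contact of the insertion bins with their neighbours fell with distance in both tissues, and its mean over the 3 bins was lower than that of the control bins in each distance class. Among single bins the exception was the northern bin in leaf at 1.1 to 2 Mb, with 2.54 (2.39 to 2.69) against 2.46 (2.38 to 2.53) for the controls. Values are relative to the mean over interchromosomal pairs. With adjoining neighbours, 0.1 Mb away, it was 15.01 (14.0 to 16.0) in leaf and 14.4 (13.7 to 15.02) in endosperm, against 35.2 and 33.1 for the controls. At 0.2 to 0.4 Mb it was 8.09 (7.85 to 8.33) in leaf and 5.43 (5.30 to 5.56) in endosperm, against 11.7 and 12.2. The intervals of the tissues overlapped at the first distance and lay apart at the second. The first distance holds only 2 pairs, which differed between the tissues in opposite directions. The northern bin's pair had 14.0 (12.7 to 15.4) in leaf and 10.97 (10.1 to 11.8) in endosperm. The southern bin's pair had 16.0 (14.4 to 17.5) and 17.8 (16.8 to 18.75).

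At 0.5 to 1 Mb the insertion bins had 3.48 (3.38 to 3.59) in leaf and 2.501 (2.44 to 2.56) in endosperm, against 5.62 and 5.87 for the controls. At 1.1 to 2 Mb they had 2.21 and 1.82 against 2.46 and 2.54, and at 2.1 to 3.4 Mb they had 1.31 and 1.39 against 1.602 and 1.79. The profile was therefore not flat within this window. It started lower than that of the controls and came closer to the interchromosomal mean, with class means that stayed above it.

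**Figure D1:**
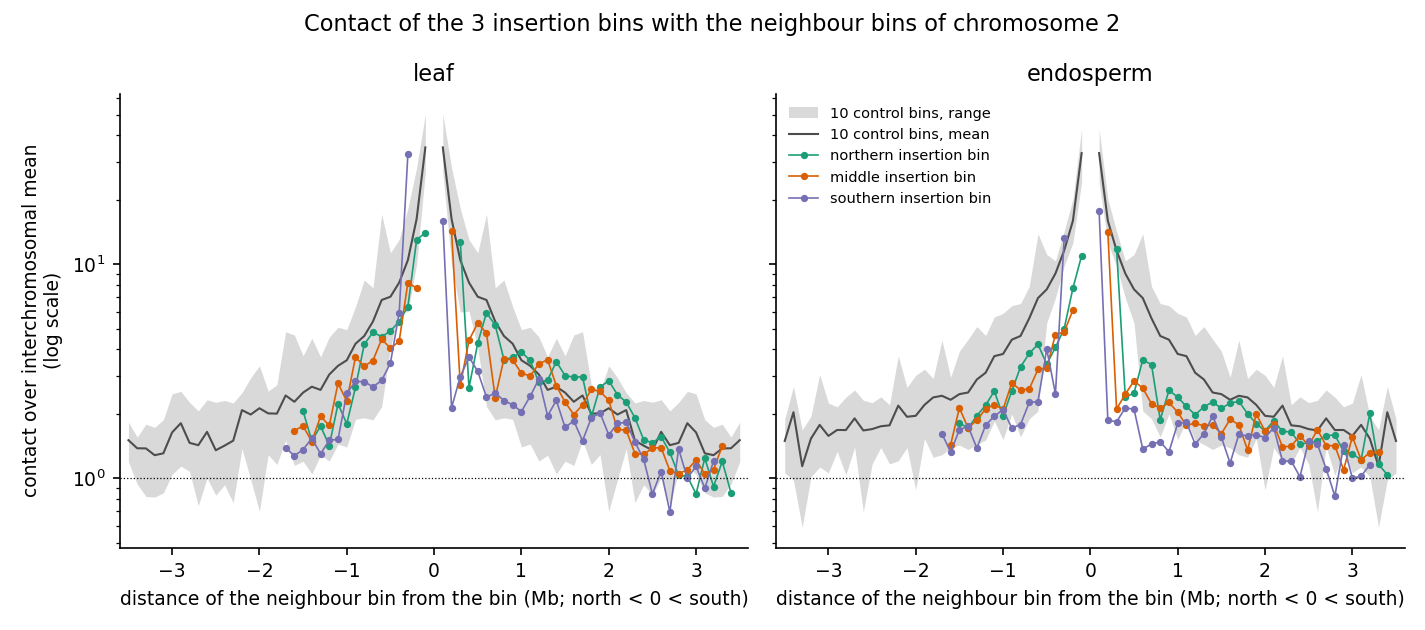
Balanced contact of each insertion bin (coloured points) with each neighbour bin, over the interchromosomal mean on a log scale, by distance to the neighbour in Mb, in leaf (left) and endosperm (right). Grey shows the range and mean of the 10 control bins at the same distance, and the dotted line marks the interchromosomal mean. The control values are pooled over both directions and drawn alike on both sides. They rest on 20 pairs at 0.1 Mb and on 5 at 3.5 Mb. Contact falls with distance for all 3 bins, mostly below the control mean, and the southern bin's high point 0.3 Mb to the north is the pair described below at 32.7 in leaf and 13.2 in endosperm.

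Summed over the neighbours, contact was 0.802 (0.789 to 0.815) of the expectation among the neighbours at the same distances in leaf and 0.567 (0.560 to 0.574) in endosperm. The log2 difference, endosperm over leaf, was -0.50 (-0.53 to -0.47). The control bins stood at 1.14 in leaf and 1.08 in endosperm. Bin by bin from north to south the values were 0.857, 0.816 and 0.735 in leaf and 0.623, 0.578 and 0.501 in endosperm, so each bin was lower in endosperm. In both tissues the southern bin was the lowest.

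The same contact was then taken above each bin's own interchromosomal level and divided by that of the control bins at matched distances. On this scale, called the cis excess ratio, 1 is the decay of the controls and 0 a profile as flat as contact between chromosomes. The insertion bins had 0.593 (0.575 to 0.610) in leaf and 0.369 (0.359 to 0.379) in endosperm. From north to south the bins had 0.664, 0.596 and 0.519 in leaf and 0.441, 0.374 and 0.292 in endosperm. Single control bins had 0.773 to 1.14 in leaf, and 0.917 to 1.09 in endosperm, and no insertion bin reached these ranges. The adjoining bin at 3.5 to 3.6 Mb, whose count was below the median, had 0.679 (0.634 to 0.724) in leaf and 0.515 (0.481 to 0.550) in endosperm. The adjoining bin at 3.1 to 3.2 Mb had 0.865 and 0.729. Values below the controls were thus not particular to the insertion bins. With an expectation from the whole of chromosome 2 the insertion bins' value rose to 0.998 in leaf and 0.426 in endosperm. In leaf their distance from the controls therefore depended on the reference chosen. The endosperm value was below the leaf value in 8 of 8 settings, the reported one included, with a ratio of 0.427 to 0.624. Each setting keeps a division by the bin's own total, which was higher in endosperm, so the settings are not independent of that count.

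Balancing lowers every contact of a bin whose total is high. Values without the bin's own factor, with the partner's factor kept, were therefore computed as well. Without it, the interchromosomal level of the insertion bins was 2.94 times that of the controls in leaf and 5.03 times in endosperm. The northern, middle and southern bins had 2.58, 3.57 and 2.66 times in leaf and 3.92, 5.97 and 5.20 times in endosperm, and the control bins ran from 0.764 to 1.21 and from 0.772 to 1.17. This level repeats the count that chose the bins in part, and is given as a description.

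Neighbour contact above that level, again without the bin's own factor, was 1.51 (1.47 to 1.56) times the controls in leaf and 1.57 (1.53 to 1.62) times in endosperm. The difference of 0.0595 had an interval of -0.00206 to 0.121, which includes 0. The northern bin had 1.54 (1.47 to 1.61) in leaf and 1.53 (1.47 to 1.59) in endosperm. The middle bin had 1.85 (1.77 to 1.94) and 1.92 (1.84 to 2.00), and the southern bin 1.19 (1.13 to 1.25) and 1.31 (1.25 to 1.37). The 10 control bins had 0.827 to 1.17 in leaf, and 0.836 to 1.12 in endosperm, below each insertion bin. A value near 1.5 was not particular to the insertion bins. The bin at 3.6 to 3.7 Mb, whose high count is given below, had 1.49 (1.40 to 1.58) in leaf and 1.46 (1.38 to 1.54) in endosperm. The adjoining bins at 3.1 to 3.2 and 3.5 to 3.6 Mb had 0.991 and 0.632 in leaf and 0.814 and 0.510 in endosperm.

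The order of the tissues on this scale depended on the setting. Endosperm was higher in 3 of 6 settings, with a ratio to leaf of 0.705 to 1.04, and the lowest ratio came with the expectation from the whole of chromosome 2 (2.18 in leaf and 1.54 in endosperm). Without the adjoining bin on either side, a setting chosen after the data were seen, the values were 1.39 and 1.27. In all 6 settings both tissues stayed above 1, at 1.25 to 2.18 in leaf and 1.14 to 1.62 in endosperm.

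**Figure D2:**
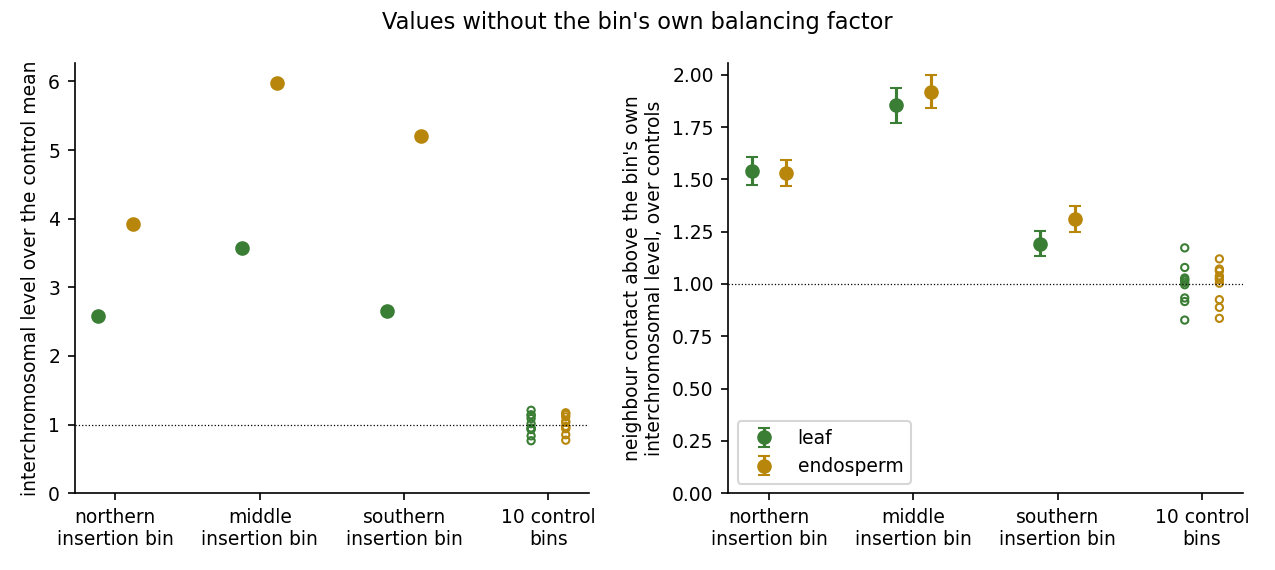
Left, interchromosomal contact of each insertion bin without its own balancing factor, over the mean of the controls. Right, neighbour contact above that level, over the controls at the same distances. Filled points are insertion bins with 95% counting intervals, open circles are the 10 control bins, and colours mark the tissue. The left values, which share contacts with the counts that chose the bins, are 2.58 to 3.57 for leaf and 3.92 to 5.97 for endosperm. The right values are 1.19 to 1.85 and 1.31 to 1.92.

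Set against every used bin of the genome, balanced contact within 1 Mb over the expectation of the bin's own chromosome was 1.20, 1.13 and 1.10 from north to south in leaf, and 0.628, 0.583 and 0.510 in endosperm. The insertion bins ranked 910, 873 and 848 of 1168 from the lowest in leaf and 11, 9 and 8 in endosperm. A value under 0.8 occurred in 30.7% of bins in leaf and 1.88% in endosperm. Of the 3 insertion bins 0 were under it in leaf and 3 in endosperm. The 9 other bins with over 2 times the median count had a median of 0.527 (range 0.340 to 1.27) in leaf and 0.324 (range 0.274 to 0.734) in endosperm, and all 3 insertion bins lay inside those ranges.

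The edges of the insertion had a pattern of their own. The bin at 3.1 to 3.2 Mb, just north of the insertion, had 443 contacts with the northern insertion bin in leaf and 655 in endosperm, a balanced contact of 14.0 and 10.97. With the middle bin it had 327 and 541 contacts, a balanced contact of 7.73 and 6.11. With the southern bin, the farthest of the 3, it had 1023 and 1021 contacts, a balanced contact of 32.7 (30.8 to 34.8) in leaf and 13.2 (12.4 to 14.1) in endosperm. The most distant insertion bin was thus the one met most by this neighbour, at 3.67 times the expectation in leaf and 1.25 times in endosperm.

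South of the insertion bins, the bin at 3.5 to 3.6 Mb met the southern, middle and northern bins in the order of distance. The values were 16.0, 14.4 and 12.7 in leaf and 17.8, 14.2 and 11.8 in endosperm. With the southern bin it had 405 contacts in leaf and 1215 in endosperm, 0.976 and 2.31 times the neighbour median at that distance. This bin may hold the edge of the insertion, which was not tested, and the neighbour measures count it as a neighbour. Over neighbours within 1 Mb, the southern insertion bin had 1.29 (1.23 to 1.35) of the expectation to its north and 0.453 (0.427 to 0.480) to its south in leaf. In endosperm it had 0.594 (0.569 to 0.618) and 0.356 (0.342 to 0.370). The northern insertion bin had the lower sum to its north, with 0.711 to its north and 0.970 to its south in leaf and 0.507 and 0.607 in endosperm. The middle bin was nearly even, with 0.736 and 0.781 in leaf and 0.498 and 0.508 in endosperm. Among the southern neighbours is the bin at 3.6 to 3.7 Mb, named after its values were seen, which held 23.0 times the median count in leaf and 15.8 times in endosperm.

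Of the 10 bins with the highest balanced contact with the insertion bins, 9 in each tissue were neighbours, a class that makes up 4.03% of the other bins. The first 2 were the adjoining bins at 3.1 to 3.2 and 3.5 to 3.6 Mb in both tissues, in opposite order. The bin at 3.0 to 3.1 Mb was the fourth in both, with 9.04 in leaf and 5.01 in endosperm. The fifth was at 3.8 to 3.9 Mb in leaf, with 4.98, and at 2.9 to 3.0 Mb in endosperm, with 4.57.

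The exception ranked 3 in both tissues and lay on chromosome 5, at 8.1 to 8.2 Mb, in an arm. That bin had an ordinary count, 1.08 times the median in leaf and 1.02 times in endosperm. It held 27 genes in the table, 24 of them protein-coding and 0 for transfer RNA, with, as examples, WRKY30, a transcription factor gene, MIND, a plastid division gene, and SIGE, a gene for a plastid sigma factor. Its contact was with the southern insertion bin, with 1347 contacts in leaf and 1305 in endosperm, or 39.0 (36.9 to 41.1) and 15.6 (14.8 to 16.5) times the interchromosomal mean. The northern and middle bins met it at 0.774 and 0.919 in leaf and at 1.13 and 1.501 in endosperm, and the controls at 0.833 and 1.04.

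This contact was sharp along chromosome 5. The bins on either side of the partner met the southern insertion bin at 0.974 and 1.03 in leaf and at 0.860 and 0.958 in endosperm. Over 30 bins within 1.5 Mb of the partner the median was 0.992 in leaf and 1.13 in endosperm, and the highest 1.26 and 1.47. The pair ranked 9 among 541742 interchromosomal pairs in leaf and 17 in endosperm. Pairs over 5 times the mean made up 0.0168% in leaf and 0.00886% in endosperm, and this was the insertion bins' pair among them in each tissue. Control bins had such pairs too. The strongest partner of the control bin at 4.6 to 4.7 Mb stood at 14.8 in leaf and 6.48 in endosperm. In leaf those of the control bins at 4.2 to 4.3 and 2.5 to 2.6 Mb stood at 6.69 and 5.99. Every other strongest partner of a control bin was below 5 times the mean.

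The chromosome 5 partner of the southern insertion bin also met the neighbour bin at 3.1 to 3.2 Mb. That pair had 975 contacts in leaf and 1045 in endosperm, 56.5 (53.1 to 60.2) and 50.1 (47.1 to 53.2) times the mean. That pair ranked 4 in leaf and 2 in endosperm. The southern insertion bin, the neighbour at 3.1 to 3.2 Mb and the bin on chromosome 5 thus each met the other two above the values expected or seen around them in both tissues, by the least margin within chromosome 2 in endosperm. Per 1000000 contacts in the map, the southern insertion bin's pair with chromosome 5 had 72.6 (68.8 to 76.6) in leaf and 52.1 (49.3 to 55.0) in endosperm. Its count, and that of the pair with the neighbour at 3.1 to 3.2 Mb, therefore did not follow the southern bin's total, which was higher in endosperm. A weaker partner of the southern bin at 23.6 to 23.7 Mb of chromosome 5, named after its values were seen, had 158 contacts in leaf and 224 in endosperm, 4.96 (4.22 to 5.80) and 2.69 (2.35 to 3.06) times the mean. The sequences of these bins were not compared here, and whether reads of shared sequence contribute to these pairs was not tested.

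**Figure D3:**
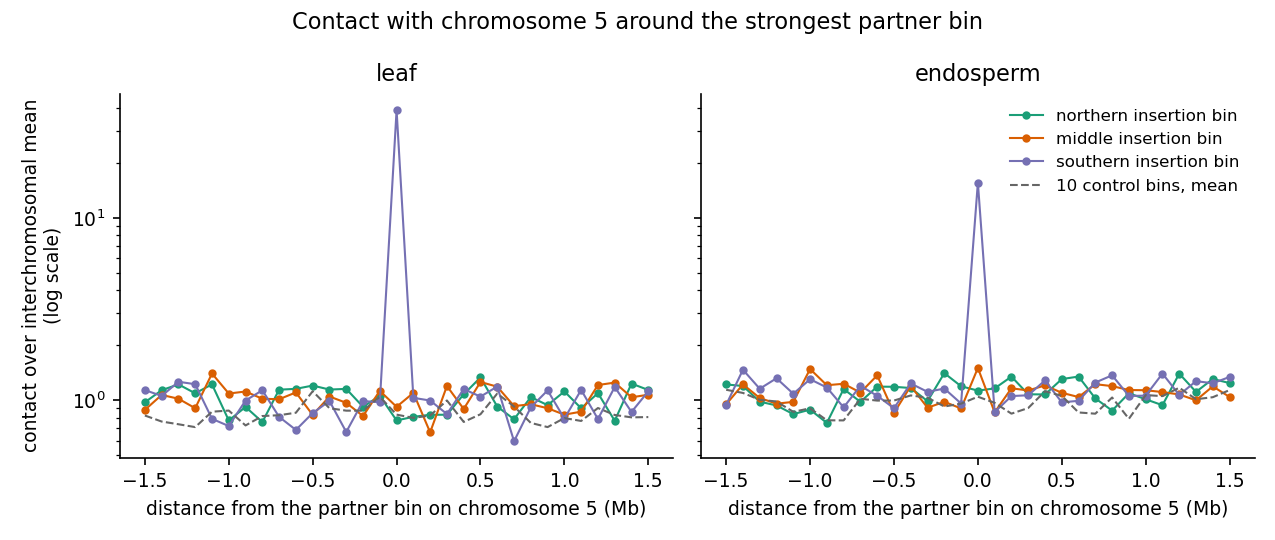
Balanced contact over the interchromosomal mean, on a log scale, of each insertion bin and of the mean of the 10 control bins with chromosome 5, by distance in Mb from the bin at 8.1 to 8.2 Mb, in leaf (left) and endosperm (right). The southern insertion bin has a peak of 1 bin, 39.0 in leaf and 15.6 in endosperm, and the other two insertion bins have none as high.

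With whole classes of bins on other chromosomes, the insertion bins had balanced contact slightly above that of the controls, in a direction that turned with the scaling. With pericentromeres, the heterochromatin around the centromeres, they had 1.05 (1.03 to 1.07) in leaf and 1.21 (1.19 to 1.22) in endosperm, against 0.890 and 1.05 for the controls. With arms they had 1.06 (1.05 to 1.07) and 1.11 (1.10 to 1.11), against 0.921 and 0.954. With chromosome ends they had 1.00 (0.972 to 1.03) and 1.05 (1.03 to 1.07), against 0.860 and 0.965. For each class in each tissue they were above the controls on 4 of 4 chromosomes, with ratios of 1.02 to 1.27 in leaf and 1.01 to 1.20 in endosperm. The lowest ratio in each tissue had an interval that included 1. These were 1.02 (0.967 to 1.07) with the pericentromere of chromosome 4 in leaf and 1.01 (0.944 to 1.07) with the ends of chromosome 5 in endosperm. Balancing gives every bin the same total, so the 4 chromosomes are not independent of each other. The adjoining bins were above the control means with pericentromeres as well. The bin at 3.1 to 3.2 Mb had 0.945 in leaf and 1.19 in endosperm, and the bin at 3.5 to 3.6 Mb had 1.10 and 1.24.

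When the counts were instead divided once by both bins' totals, the ratio to the controls fell to 1.02 with pericentromeres, 0.994 with arms and 1.01 with ends in leaf, and to 0.888, 0.895 and 0.843 in endosperm. The insertion bins were then below the controls in endosperm and close to them in leaf. Within endosperm, pericentromeric contact of the insertion bins was above their arm contact under both scalings, at 1.21 against 1.11 and at 0.939 against 0.870. In leaf the values were 1.05 against 1.06 and 0.925 against 0.943. The controls had the same order in both tissues. They had 1.05 against 0.954 and 1.06 against 0.972 in endosperm, and 0.890 against 0.921 and 0.909 against 0.949 in leaf. The share of balanced contact outside the bin that was interchromosomal stood at 74.0% in leaf and 75.0% in endosperm, against 67.7% and 67.1% for the controls, and was above the controls under both scalings. The balanced share was also above the control means in the adjoining bins. The bin at 3.1 to 3.2 Mb had 71.3% in leaf and 73.3% in endosperm, and the bin at 3.5 to 3.6 Mb had 73.0% and 73.2%.

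The spread of a bin's interchromosomal contact over the 971 bins of other chromosomes beyond counting error, as a coefficient of variation, was 0.129 for the northern and 0.108 for the middle bin in leaf, and 0.145 and 0.122 in endosperm. The southern bin had 1.15 in leaf and 0.431 in endosperm, and without the partner at 8.1 to 8.2 Mb of chromosome 5, a setting chosen after the data were seen, it had 0.153 and 0.129. The control bins had 0.181 to 0.536 in leaf, and 0.206 to 0.283 in endosperm. Insertion and control bins were then treated alike, each without its own strongest partner, a setting also chosen after the data were seen. In endosperm the insertion bins had 0.120 to 0.141 and the controls 0.201 to 0.262. In leaf the insertion bins had 0.104 to 0.153, the northern controls 0.301 to 0.388 and the southern controls 0.150 to 0.195, so that the ranges overlapped there.

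Some of the controls' unevenness was shared by the insertion bins. Without the partner, over 970 bins, the mean profile of the insertion bins correlated with that of the northern controls at r = 0.43 and with that of the southern controls at r = 0.27 in leaf. In endosperm the values were 0.24 and 0.17. The 2 groups of controls correlated with each other at 0.50 in leaf and 0.22 in endosperm. With the partner kept, the insertion bins' values were 0.14 and 0.093 in leaf and 0.16 and 0.11 in endosperm. The points share the same map and partner bins, and the values are descriptions across bins with no test. Among the points are the bins of chromosome 1 with the leaf step described next. How much that step adds to the leaf spread and correlations was not tested.

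In leaf, contact with part of chromosome 1 differed between the 2 control groups. From 22.7 Mb of chromosome 1 on, contact with the northern controls stepped up, from 0.869 over the 5 Mb before to 2.07 over the 5 Mb after. The place of the step was found from the northern controls, so their step is a description. The southern controls, on the far side of the insertion, went from 0.861 to 1.25, a step of 0.388 (0.340 to 0.437). The insertion bins went from 1.02 to 1.31, a step of 0.295 (0.254 to 0.336). The northern, middle and southern insertion bins had steps of 0.350, 0.279 and 0.256, each with an interval above 0. In endosperm the insertion bins had 1.10 before and 1.13 after, a step of 0.0240 (-0.00329 to 0.0513), and neither control group had a step whose interval lay above 0.

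Without the bins' own factor, the leaf step of the insertion bins was 0.613 (0.523 to 0.704) times that of the northern controls and 1.963 (1.59 to 2.33) times that of the southern controls. On this scale the insertion bins, which lie between the 2 control groups on chromosome 2, had a step between theirs. Here a step also grows with the bin's interchromosomal level, which was 2.94 times that of the controls in leaf. The size of the step therefore cannot be read as position. On the balanced scale their step was below both.

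**Figure D4:**
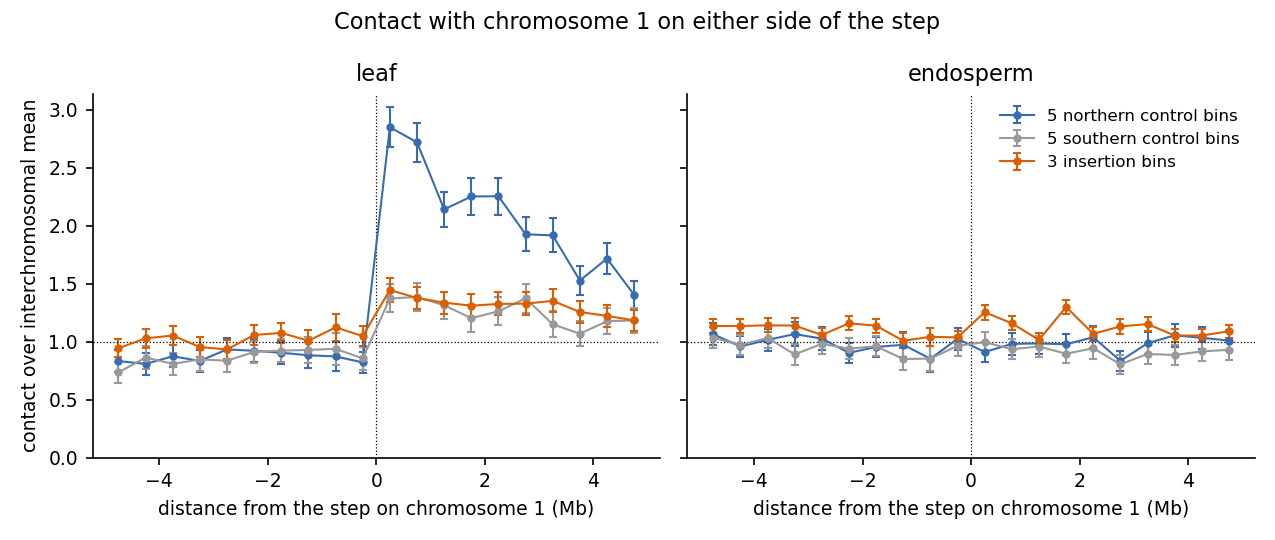
Balanced contact over the interchromosomal mean with chromosome 1, in windows by distance in Mb from the step at 22.7 Mb, for the insertion bins and both control groups in leaf (left) and endosperm (right), with 95% counting intervals. In leaf all 3 groups rise at the step, the insertion bins from 1.02 to 1.31, and in endosperm the insertion bins stay at 1.10 before and 1.13 after.

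With the parts of chromosome 2 outside the window, contact of the insertion bins ranged from 1.01 to 1.54 times the interchromosomal mean. With the 130 bins south of the neighbours the insertion bins had 1.11 (1.10 to 1.13) in leaf and 1.15 (1.13 to 1.16) in endosperm, against 1.07 and 1.15 for the northern and 1.24 and 1.34 for the southern controls. With the 17 bins to the north they had 1.01 (0.966 to 1.06) in leaf and 1.54 (1.501 to 1.58) in endosperm, against 1.20 and 3.16 for the northern and 0.895 and 1.55 for the southern controls. The insertion bins thus had higher contact with the northern end of their chromosome in endosperm than in leaf, as both control groups did. The control groups lie at other distances from these partners, so their values stand beside those of the insertion bins without a comparison.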

How the data were processed

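In situ Hi-C was done on endosperm and leaf, with 2 samples per tissue per the labels. The deposited files hold balanced contact signal between bins of 100 kb and 200 kb, with the replicates of a tissue pooled by the authors. The submitters' processing notes name HiC-Pro 2.9.0, Bowtie2 and TAIR10. The restriction enzyme, read filters and balancing settings were not given in the sources used here. Bins were laid out from the last gene of each nuclear chromosome in the RefSeq gene table (TAIR10.1), and pericentromeres and arms were set from gene cover in that table.

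The signal of a pair is its count times a factor for each bin. Factors were solved so that every pair became a whole count, which held for 100% of pairs within 0.01. Intervals are values ± 1.96 counting standard errors, or exact Poisson limits for single pairs, and cover counting error only. The calculations used Python 3.11.15, numpy 2.4.6, scipy 1.17.1 and pandas 2.3.3, and were tested on simulated data. With 1 map per tissue no test was possible.

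The regions named are the insertion bins, both control groups, the bin at 3.5 to 3.6 Mb and, per tissue, the 5 bins with the highest contact with the insertion bins, and the genes named by rule are those with mitochondrial family names. The bins, controls and lists were chosen with earlier results of these data known. Alternatives were another distance expectation, nearer neighbours, a single division by totals, a wider insertion, the 200 kb map and leaving out partner bins with high counts.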

Additional observations from a re-analysis of the deposited data

How the results depend on the processing

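No paired analysis was possible because the replicates of each tissue are pooled in 1 map. Of 74 alternative values 25 stayed within the counting interval of the reported value and 49 did not; why they moved was not tested. Values are given for leaf and then endosperm unless stated. With the expectation from all of chromosome 2, neighbour contact was 1.02 and 0.594, the cis excess ratio 0.998 and 0.426, and the excess without the bin's own factor 2.18 in leaf. With neighbours within 1 Mb, neighbour contact was 0.762 and 0.494. With counts divided once by totals, neighbour contact was 0.700 and 0.437, the cis excess ratio 0.506 and 0.278, pericentromere contact 0.925 and 0.939, arm contact 0.943 and 0.870, the interchromosomal share 74.4% and 75.9%, and the profile spread 0.224 in endosperm. With the bin at 3.5 to 3.6 Mb added, the count ratio was 2.02 and 3.70, the excess without the own factor 1.25 and 1.14, arm contact 1.03 and 1.08, the share 73.8% and 74.5%, and the spread 0.249 in endosperm. In the 200 kb map the count ratio was 1.99 and 3.65, arm contact 1.04 and 1.08, the share 75.6% and 76.3%, and in endosperm neighbour contact 0.530 and the cis excess ratio 0.318. Without partner bins over 2 times the median count, pericentromere contact was 1.03 and 1.18, and in endosperm the cis excess ratio was 0.379 and the excess without the own factor 1.62. Chosen after seeing the data, leaving out the adjoining bins gave neighbour contact of 0.776 and 0.530, cis excess ratios of 0.537 and 0.301, and an excess without the own factor of 1.39 and 1.27, and leaving out the chromosome 5 partner gave spreads of 0.130 and 0.132, and leaving out each bin's own strongest partner 0.128 and 0.130. The count ratio was higher in endosperm in 3 of 3 settings, and neighbour contact and the cis excess ratio were lower in 8 of 8 each. All of the latter settings keep a division by the bin's own total. A median of 16 and 21 counts per interchromosomal pair limits what single pairs can show.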
